A study of Mus musculus with 4 samples.

Results

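The genes described here were 34 mouse genes of the NRF2 pathway and of antioxidant defence, taken by their symbols from a table of read counts for 47937 genes. The members were grouped by role into the NRF2 regulator pair, glutathione, thioredoxin, NADPH supply, iron and heme, quinone and carbonyl detoxification, and basal antioxidant enzymes. All 34 had enough reads to be tested, among 16240 tested genes. Total RNA of mouse embryonic fibroblasts (MEF cells), connective tissue cells cultured from embryos, was sequenced after a 24 h exposure to 50 μM of the plant isoflavone genistein and without it, with 2 libraries per group. The labels give wild-type for the untreated cells and no strain, embryo age or vehicle for either group, and they do not say whether replicates were separate cultures, so that the p-values measure the spread between these libraries only. Cells of both groups grew in medium containing β-mercaptoethanol, a thiol reductant.

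NRF2, encoded by Nfe2l2, is a transcription factor that the adaptor protein KEAP1 delivers to the CUL3 ubiquitin ligase for degradation. Electrophiles and oxidants modify cysteines of KEAP1, NRF2 then escapes degradation, pairs with small MAF proteins and binds antioxidant response elements (ARE) in genes for glutathione and thioredoxin metabolism, NADPH production, iron storage and quinone reduction. BACH1 competes with NRF2 at many of these elements. In fibroblasts these genes are expressed without stress, and their transcripts are common readouts of electrophile exposure.

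Between 28591958 and 31464284 reads were counted per library over genes and repeats, and replicates correlated with r of at least 0.995 on the log2 scale. Among 10 fibroblast markers, Col1a1, Col1a2, Col3a1, Vim and Fn1 were abundant, while Thy1 had no read and Lum had between 1 and 10 reads per library. The summed normalized count of the fibroblast list was 428162 and 439977 in untreated and 418066 and 408903 in genistein libraries. Of its 8 tested markers 6 fell and 2 rose at an adjusted p-value under 0.05 (edgeR), from Pdgfrb at a log2 fold change of -0.73 and Col1a2 at -0.50 to Dcn at 1.08, which was past all thresholds. Among all tested genes with a mean normalized count over 100, 47.2% were called lower and 33.0% higher. The list of macrophage and blood markers summed to 210 and 194 in untreated and 561 and 576 in genistein libraries, nearly all of it from Csf1r and Cd68, with Adgre1 at 0 and Ptprc at 0 or 1 read. The epithelial list summed to 506 and 511 in untreated and to 168 and 168 in genistein libraries, and Epcam was at 0. The endothelial list summed to 25.0 to 30.7 and to 85.3 to 97.2, the neural list to at most 15.9, and all 6 erythroid markers, hemoglobins included, were at 0 in every library. The part of these lists in the results below was not tested. In bulk RNA, fewer cells expressing a gene and less RNA per cell cannot be told apart.

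Most of the antioxidant genes were higher after genistein, and the largest changes were in iron and heme, quinone and glutathione conjugation genes. At an adjusted p-value under 0.05 (edgeR's quasi-likelihood test, adjusted by Benjamini-Hochberg across every tested gene and repeat), 22 of 34 members rose, 9 fell and 3 did not pass. These are 64.7% and 26.5% of the members, beside 33.5% of all tested genes called higher and 38.2% called lower. Since nearly all members were well expressed, the background was also taken over genes with a mean normalized count over 100, of which 33.0% were called higher and 47.2% lower. With the thresholds of the study's methods (adjusted p-value under 0.05, absolute log2 fold change over 1 and mean normalized count over 100), 7 members were higher and 0 lower, against 3.92% and 4.16% of all tested genes and 5.47% and 5.81% of those over a count of 100. The 7 were Nqo1, Hmox1, Ftl1, Aox1, Gstm1, Mgst1 and Gclc. The 9 members that fell, with log2 fold changes from -0.54 to -0.09, were Gsr, Keap1, Txn1, Prdx6, Tkt, Sod2, G6pdx, Taldo1 and Esd. The median log2 fold change was 0.27 over the members and -0.03 over all tested genes, while the median absolute change was 0.41 and 0.44.

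**Figure D1:**
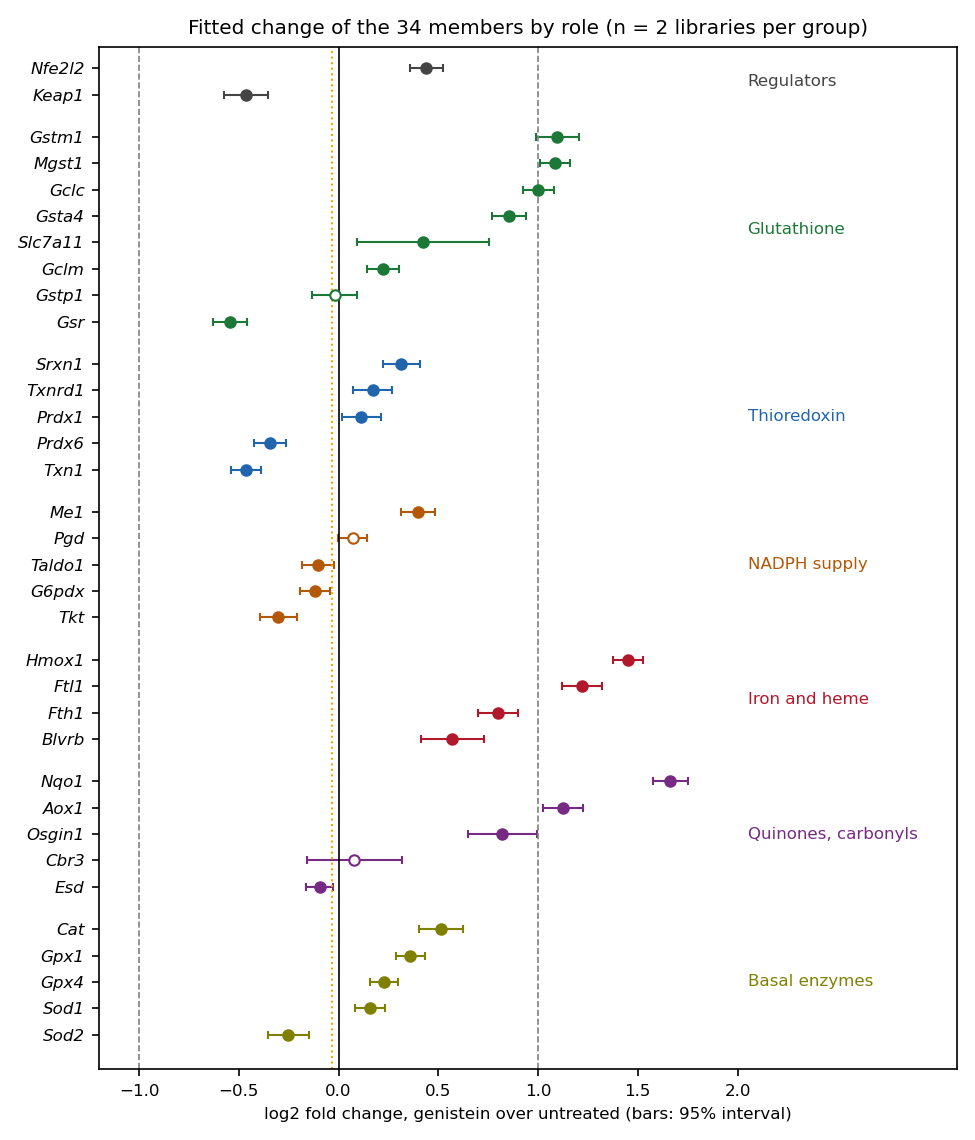
Log2 fold change (x axis) of each of the 34 members, grouped and coloured by role; bars are 95% intervals of the fit on 2 libraries per group, filled points have an adjusted p-value under 0.05, dashed lines mark a log2 fold change of 1 in either direction and the dotted line is the median of all tested genes at -0.03. All 4 iron and heme genes lie above 0.5, and the lowest member is Gsr at -0.54.

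The regulator pair moved in opposite directions. Nfe2l2 (chromosome 2, 75675513 to 75704641), encoding NRF2, had normalized read counts of 2101 and 2032 in untreated and 2835 and 2772 in genistein libraries. NRF2 mRNA was thus higher by 0.44 on the log2 scale (standard error 0.04, adjusted p = 2.7e-08, edgeR). Keap1 (chromosome 9, 21229730 to 21239361), encoding its inhibitor, had 1366 and 1307 normalized counts without and 944 and 994 with genistein, a log2 fold change of -0.46 (standard error 0.05, adjusted p = 6.7e-07, edgeR). For both genes the groups did not overlap. Of all 16240 tested genes, 6603 had both genistein libraries above both untreated ones and 7245 had both below. An antisense gene, Gm16754, shares 10.9% of the annotated exon bases of Keap1, and the strand setting of the counting was not stated. On the TPM scale, which divides reads by exon length and sets the genes of each library to one fixed total, Nfe2l2 was at 1.90 and 1.92 times the level of Keap1 without genistein and at 3.71 and 3.45 times with it.

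Of 11 other regulators in a list of pathway genes, 6 rose (54.5%) and 3 fell (27.3%), beside 33.5% and 38.2% of all tested genes. Bach1, the competing repressor, rose from 1272 and 1363 to 2095 and 2113 normalized counts (log2 fold change 0.68, standard error 0.05, adjusted p = 1.1e-09, edgeR). Its lymphoid relative Bach2 rose at a far lower count, from 98.9 and 85.8 to 155 and 154 (log2 fold change 0.74). Sqstm1, the autophagy receptor p62, which binds KEAP1 and is also an NRF2 target, rose from 6233 and 6146 to 11603 and 11371 (log2 fold change 0.89). Cul3, the ligase scaffold, fell by 0.45 and Maff, a small MAF partner, fell by 0.54 on the log2 scale. The other two small MAF genes did not pass. Mafg differed by -0.0015 with a 95% interval from -0.11 to 0.11, and Mafk differed by -0.11 with an interval from -0.23 to 0.02. Nfe2l1, a relative of Nfe2l2, rose by 0.31.

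Among the 8 glutathione members, 6 rose, 1 fell and 1 did not pass, with a median log2 fold change of 0.64. The shares were 75% higher and 12.5% lower, beside 33.5% and 38.2% of all tested genes. Gclc (chromosome 9, 77754535 to 77794485) encodes the catalytic subunit of glutamate-cysteine ligase, the rate-limiting enzyme of glutathione synthesis. It had 1689 and 1658 normalized counts in untreated and 3349 and 3353 in genistein libraries, a log2 fold change of 1.00 (standard error 0.04, adjusted p = 8.8e-13, edgeR). Gclm (chromosome 3, 122245557 to 122270732), encoding the modifier subunit of the same enzyme, changed far less, from 2135 and 2174 to 2504 and 2529 (log2 fold change 0.22, standard error 0.04, adjusted p = 5.1e-05, edgeR). The ratio of Gclm to Gclc in TPM was 0.757 and 0.785 in untreated and 0.447 and 0.452 in genistein libraries. The annotated exons of Gclm share 244 bases, 3.88% of their length, with the pseudogene Gm6061. The same length matches the pseudogene Gm10123 in full, which fell from 22450 and 22139 to 13753 and 14723 normalized counts. Gclm transcripts also match the protein-coding gene Ppia at 97.909% identity over 287 bases. Ppia fell from 6144 and 5977 to 3792 and 3742. Reads of these stretches are uncertain, and their part in the Gclm counts was not tested.

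Gclc sat at the fold threshold. Its log2 fold change lay from 0.98 to 1.07 under the alternatives, below 1 with RLE size factors (0.99), with no filter and with DESeq2 (0.98 in both) and without untreated replicate 2 (0.98), and its adjusted p-value stayed under 0.05 in each. Gsta4 at 0.86, Osgin1 at 0.82 and Fth1 at 0.80 fell short of the fold threshold.

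Slc7a11 (chromosome 3, 49892526 to 50443614), the cystine importer that supplies cysteine for glutathione, was by far the least expressed member, with 82.9 and 69.9 normalized counts in untreated and 108 and 97.2 in genistein libraries. The rise of 0.42 (log2, standard error 0.16, adjusted p = 0.023, edgeR) was the least precise among the members. The call was lost without untreated replicate 2 (log2 fold change 0.30, adjusted p = 0.13, edgeR), without genistein replicate 1 (0.35, adjusted p = 0.15, edgeR) and with DESeq2 (0.40, adjusted p = 0.26). Gsr (chromosome 8, 33652523 to 33698163), the reductase that regenerates glutathione from its disulfide with NADPH, went the other way. Its normalized counts fell from 2388 and 2406 to 1607 and 1684 (log2 fold change -0.54, standard error 0.04, adjusted p = 4.4e-09, edgeR), the lowest change of all members.

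The glutathione transferases, which conjugate glutathione to electrophiles, split by gene. Mgst1, the microsomal enzyme (chromosome 6, 138140316 to 138156755), rose from 2091 and 2074 to 4433 and 4398 normalized counts (log2 fold change 1.08, standard error 0.03, adjusted p = 1.4e-13, edgeR). Gstm1 (chromosome 3, 108012255 to 108017973) rose from 732 and 719.9 to 1574 and 1532 (log2 fold change 1.10, standard error 0.05, adjusted p = 1.4e-11, edgeR). Gsta4, active on the lipid peroxidation product hydroxynonenal, rose from 1696 and 1608 to 2966 and 3014 (log2 fold change 0.86, adjusted p = 1.3e-11, edgeR). In all 3 both genistein libraries lay above both untreated ones, as in 6603 of the 16240 tested genes.

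Gstp1 (chromosome 19, 4035407 to 4037985) had 1016 and 1005 counts in untreated and 1005 and 988 in genistein libraries, and the groups overlapped. Its difference was -0.02 on the log2 scale with a 95% interval from -0.13 to 0.09 (adjusted p = 0.75, edgeR). A processed pseudogene, Gstp-ps, holds a near-identical copy and had on average 43.5% of its counts, at 448 and 429.8 without and 429 and 437 with genistein. With the reads of that copy added, a choice made once the values were known, the difference was also -0.02.

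**Figure D2:**
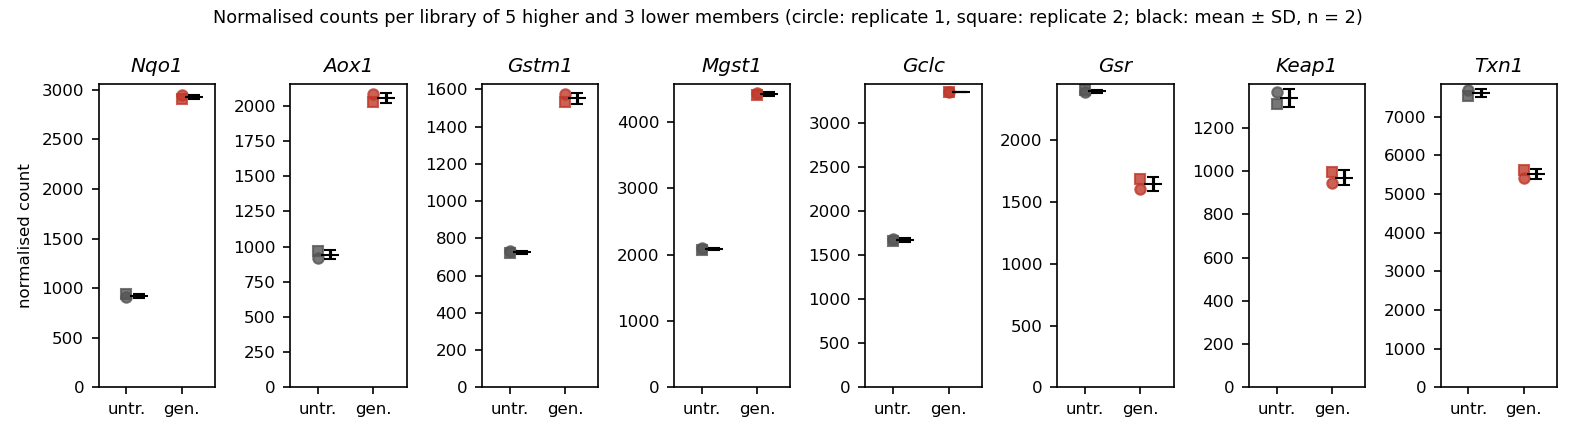
Normalized counts (y axis, from 0) of the 5 higher members past all thresholds outside iron and heme, and of the 3 members with the lowest log2 fold changes, in the untreated (grey) and genistein (red) libraries; black marks are the mean ± SD of 2 libraries. In each panel the libraries of a group lie close together, from Nqo1 at 911 and 938 against 2944 and 2911 to Txn1 at 7684 and 7536 against 5417 and 5615. That the groups do not overlap follows from picking these members by their changes. Of all 16240 tested genes, 6603 had both genistein libraries above both untreated ones and 7245 had both below.

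All 5 thioredoxin members passed the test, 3 higher and 2 lower, where 11646 of all 16240 tested genes passed in either direction. Their log2 fold changes ran from -0.46 to 0.32, with a median of 0.11 and a median absolute change of 0.32. Txn1 (chromosome 4, 57943373 to 57956411), thioredoxin itself, fell from 7684 and 7536 to 5417 and 5615 normalized counts (log2 fold change -0.46, standard error 0.03, adjusted p = 4.7e-09, edgeR). Txnrd1 (chromosome 10, 82833951 to 82897712), the selenoprotein that reduces thioredoxin, was higher, from 14008 and 13725 to 15498 and 15727 (log2 fold change 0.17, standard error 0.05, adjusted p = 0.0032, edgeR). The TPM ratio of Txn1 to Txnrd1 was 3.70 in both untreated libraries, against 2.36 and 2.41 after genistein.

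Srxn1, sulfiredoxin, which repairs overoxidized peroxiredoxins, rose from 1704 and 1592 to 2057 and 2046 (log2 fold change 0.32, adjusted p = 6.8e-06, edgeR). Prdx6, a peroxiredoxin that uses glutathione, fell from 7681 and 7273 to 5942 and 5839 (log2 fold change -0.34, adjusted p = 3.7e-07, edgeR). Prdx1, the abundant cytosolic peroxiredoxin, was at the edge of the test. It had 11581 and 11076 counts in untreated and 12126 and 12394 in genistein libraries, a rise of 0.11 (log2, standard error 0.05, adjusted p = 0.036, edgeR). The call was lost under 6 of 10 alternatives, among them the fits without untreated replicate 1 (0.14), without untreated replicate 2 (0.08) and without genistein replicate 2 (0.10), and the fit with the replicate block (0.11, adjusted p = 0.10, edgeR).

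NADPH, which pays for both systems, is made by the oxidative pentose phosphate enzymes and by malic enzyme. Of the 5 NADPH members 1 rose (20%), 3 fell (60%) and 1 did not pass, beside 33.5% higher and 38.2% lower among all tested genes. No change was larger than 0.40 on the log2 scale. Me1 (chromosome 9, 86581371 to 86695953), malic enzyme, rose from 1716 and 1788 to 2282 and 2339 normalized counts (log2 fold change 0.40, standard error 0.04, adjusted p = 1.9e-07, edgeR). Tkt, transketolase of the non-oxidative branch (chromosome 14, 30548359 to 30574720), fell from 9663 and 9101 to 7591 and 7640 (log2 fold change -0.30, adjusted p = 8.9e-06, edgeR).

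The other pentose phosphate members changed little, G6pdx most, which fell by 7.93%, and their calls depended on the scaling. G6pdx, the entry enzyme on the X chromosome (74409483 to 74429194), had 3234 and 3221 counts in untreated and 3003 and 2939 in genistein libraries (log2 fold change -0.12, adjusted p = 0.0059, edgeR). Scaling by library totals gave -0.05, factors from genes alone -0.08 and the fit without genistein replicate 2 gave -0.10, none past the threshold. G6pdx shares 13.6% of its exon bases with the opposite-strand gene Ikbkg, whose counts rose from 1447 and 1532 to 2204 and 2209. Taldo1, transaldolase, had 2378 and 2361 counts without and 2189 and 2221 with genistein (log2 fold change -0.10, adjusted p = 0.020, edgeR). It lost its call under 5 of 10 alternatives, among them the fits without untreated replicate 1 (-0.10) and without genistein replicate 1 (-0.09). Pgd, which follows G6pdx, differed by 0.07 with a 95% interval from -0.0031 to 0.15 (adjusted p = 0.079, edgeR) and passed with library totals (0.14) and with factors from genes alone (0.11).

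All 4 iron and heme members rose, where 33.5% of all tested genes did, with a median log2 fold change of 1.01. Hmox1 (chromosome 8, 75093621 to 75100589), heme oxygenase 1, which opens the heme ring and frees iron, had 1750 and 1709 normalized counts in untreated and 4746 and 4708 in genistein libraries. This was a 2.73-fold increase (log2 fold change 1.45, standard error 0.04, adjusted p = 5.9e-15, edgeR). Blvrb, a biliverdin reductase of the next step, rose from 366 and 332 to 513 and 525 (log2 fold change 0.57, standard error 0.08, adjusted p = 3.9e-06, edgeR).

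The ferritin subunits, which store the iron, rose as well. Ftl1 (chromosome 7, 45457944 to 45459884), the light chain, had 19382 and 18519 counts without and 43601 and 44808 with genistein, a 2.33-fold increase (log2 fold change 1.22, standard error 0.05, adjusted p = 1.2e-12, edgeR). Fth1 (chromosome 19, 9980598 to 9985098), the heavy chain with the ferroxidase site, went from 13012 and 12667 to 22667 and 22058 (log2 fold change 0.80, standard error 0.05, adjusted p = 1.9e-10, edgeR). The TPM ratio of light to heavy chain was 3.86 and 3.78 in untreated and 4.98 and 5.26 in genistein libraries. Ftl1 has a near-identical copy, Ftl1-ps1, with 43.4% of its counts, and the counts of the copy moved alike, from 8134 and 7989 to 19274 and 19432. Reads of the matching stretch cannot be assigned with certainty, so the copy is not a separate measure of the rise. Adding all 5 copies gave a log2 fold change of 1.23.

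In the list of pathway genes, 4 of 11 further iron and heme genes rose and 6 fell, with a median log2 fold change of -0.36. These are 36.4% and 54.5%, beside 33.5% and 38.2% of all tested genes, and the difference from the members was not tested. Tfrc, the transferrin receptor that imports iron, fell from 8938 and 8857 to 2975 and 3185 normalized counts (log2 fold change -1.53, standard error 0.04, adjusted p = 2.5e-15, edgeR). Slc40a1, ferroportin, the iron exporter, rose from 80.9 and 51.9 to 223 and 243 (log2 fold change 1.80, standard error 0.16, adjusted p = 3.0e-08, edgeR). These were the 2 genes of the wider iron and heme list past all thresholds. Of these genes, those for iron storage (Ftl1, Fth1) and export (Slc40a1) were higher and the importer Tfrc was lower. In the rest of the wider list, Ncoa4 (0.56), Ireb2 (0.34) and Fech (0.12) were higher. Lower were Slc11a2 (-0.62), Aco1 (-0.51), Blvra (-0.43), Abcb6 (-0.42) and Hmox2 (-0.36), while Slc48a1 did not pass.

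**Figure D3:**
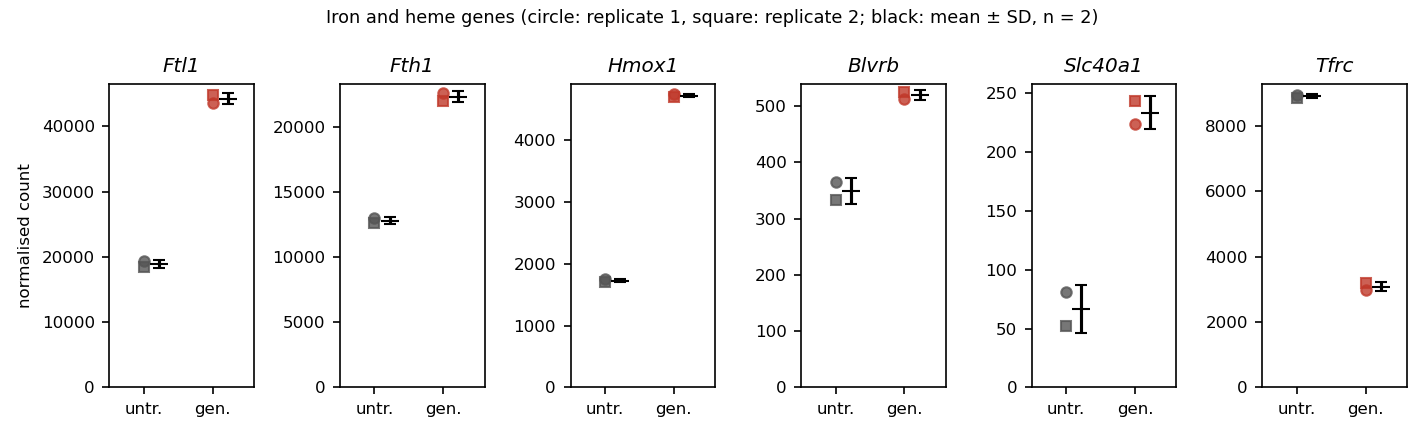
Normalized counts (y axis, from 0) of the 4 iron and heme members and of Slc40a1 and Tfrc in the untreated (grey) and genistein (red) libraries; black marks are the mean ± SD of 2 libraries. Ftl1, Fth1, Hmox1, Blvrb and Slc40a1 were higher in both genistein libraries, and Tfrc fell from 8938 and 8857 to 2975 and 3185.

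Both ferritin chains, ferroportin and the transferrin receptor are known for iron-responsive elements, hairpins that iron regulatory proteins bind when iron is scarce. Bound in the 5′ part of a transcript they block its translation, and bound in the 3′ part they protect Tfrc from decay. The elements of these 4 genes are shown because they are the well-known cases. They were read from GENCODE transcripts (release M21, GRCm38), searching the parts outside the coding sequence for a C, 5 bases of any kind and the loop CAGTGN with a base other than G at its end, where the 5 bases on either side of the loop could form at least 4 pairs, G to U pairs included. The loop is in capitals, and each line is read 5′ to 3′ on the strand of the gene.
Ftl1, 5′ part, chr7:45459779-45459807, minus strand: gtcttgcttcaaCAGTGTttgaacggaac
Fth1, 5′ part, chr19:9982732-9982760, plus strand: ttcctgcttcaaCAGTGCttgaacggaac
Slc40a1, 5′ part, chr1:45925465-45925493, minus strand: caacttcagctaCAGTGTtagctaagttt
Tfrc, 3′ part, first of 4 matches, chr16:32631219-32631247, plus strand: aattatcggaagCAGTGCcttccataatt
The 5 bases on each side of the loop are the same in Ftl1 and Fth1. Of the 34 members, 2 had a match in the 5′ part, which were Ftl1 and Fth1, and 0 had one in the 3′ part. Of the 99 genes of the wider list, 2 had a match in the 5′ part, Slc40a1 and Txnrd3, and 7 in the 3′ part, Tfrc, Abcc1, Gsk3b, Ptgr1, Sesn1, Sesn2 and Slc11a2. These genes did not share a direction by the place of the match. In the 5′ part Txnrd3 had a log2 fold change of -1.55, against 1.80 for Slc40a1. In the 3′ part Tfrc (-1.53) and Slc11a2 (-0.62) were lower, while Sesn2 (2.09), Ptgr1 (1.49), Sesn1 (0.45), Gsk3b (0.38) and Abcc1 (0.26) were higher. Over all protein-coding genes with such parts, 0.697% had a match in the 5′ part and 3.61% in the 3′ part. A match is a description of the letters, and whether the elements acted in these cells was not tested.

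Of the 5 quinone and carbonyl members, 3 rose (60%), 1 fell (20%) and 1 did not pass, with a median log2 fold change of 0.82. Among all tested genes 33.5% rose and 38.2% fell. Nqo1 (chromosome 8, 107388225 to 107403206), which reduces quinones in a single 2-electron step, had the largest change of all 34. Its normalized counts were 911 and 938 in untreated and 2944 and 2911 in genistein libraries, a 3.17-fold increase (log2 fold change 1.66, standard error 0.04, adjusted p = 7.9e-15, edgeR). Of the 16240 tested genes, 96.8% had a lower log2 fold change. Aox1 (chromosome 1, 58029931 to 58106413), aldehyde oxidase, rose from 919 and 966 to 2079.8 and 2026 (log2 fold change 1.12, standard error 0.05, adjusted p = 3.7e-12, edgeR).

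Osgin1, an oxidative stress-induced growth inhibitor, rose from 480.5 and 386 to 790.5 and 743 (log2 fold change 0.82, standard error 0.08, adjusted p = 1.5e-07, edgeR), with untreated libraries farther apart than for most members. Cbr3, a carbonyl reductase, had 197 and 186 counts in untreated and 218 and 185 in genistein libraries, so the groups overlapped. Its difference of 0.08 had a 95% interval from -0.16 to 0.32 (adjusted p = 0.55, edgeR). Esd, S-formylglutathione hydrolase, had 6095 and 6157 counts without and 5595 and 5879 with genistein, and fell by 0.09 on the log2 scale (adjusted p = 0.016, edgeR). This did not pass without untreated replicate 2 (-0.09), without genistein replicate 1 (-0.05), with library totals (-0.02) or with factors from genes alone (-0.05).

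The basal antioxidant enzymes remove superoxide and peroxides in all cells. Among the 5, 4 rose (80%) and 1 fell (20%), beside 33.5% and 38.2% of all tested genes. Their median was 0.23, with none past the fold threshold. Cat, catalase (chromosome 2, 103453849 to 103485160), rose from 1151 and 1062 to 1614 and 1549 normalized counts (log2 fold change 0.51, standard error 0.05, adjusted p = 1.7e-07, edgeR). Gpx1 and Gpx4, the selenium-dependent glutathione peroxidases for soluble and lipid peroxides, rose by 0.36 and 0.23 on the log2 scale. Gpx1 went from 5932 and 5876 to 7466 and 7693, and Gpx4 from 4217 and 4044 to 4809 and 4866.

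The superoxide dismutases moved apart. Sod1, the cytosolic copper and zinc enzyme, rose from 3514 and 3339 to 3811 and 3835 (log2 fold change 0.16, adjusted p = 0.000898, edgeR). Sod2, the mitochondrial manganese enzyme, fell from 1752 and 1860.1 to 1456 and 1580.03 (log2 fold change -0.25, adjusted p = 0.00026, edgeR). Part of the annotated Sod2 transcripts matches a sequence in Rps6ka2 transcripts at 98.264% identity over 3110 bases, so reads from that stretch cannot be assigned with certainty. Rps6ka2 went the other way, from 744 and 735 normalized counts in untreated to 966 and 919 in genistein libraries. The part of such reads in the Sod2 counts was not tested.

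Levels between genes were compared in TPM over annotated exon length. In untreated cells the members spanned from 0.431 for Slc7a11 to 1111 for Ftl1, with a median of 59.5. Ftl1, Txn1 (569 TPM), Gpx1 (322), Prdx1 (292) and Fth1 (291) held the highest levels. After genistein the order of the top ranks changed, with Ftl1 at 2851, Fth1 at 557, Gpx1 at 455 and Txn1 at 454, of which Gpx1 and Txn1 lay side by side. Hmox1 went from 77.6 to 233 TPM and Nqo1 from 46.8 to 163. TPM values are shares of the gene reads alone and ran slightly higher in genistein libraries than normalized counts do, so G6pdx, lower by counts, was at 82.3 and 83.3 TPM. Together the members took 0.450% and 0.438% of all counts in untreated and 0.622% and 0.640% in genistein libraries, and the iron and heme group made up most of the gain, from 34510 and 33227 to 71527 and 72098 summed normalized counts. The thioredoxin group summed to 42658 and 41202 without and 41041 and 41621 with genistein, and these ranges overlap.

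**Figure D4:**
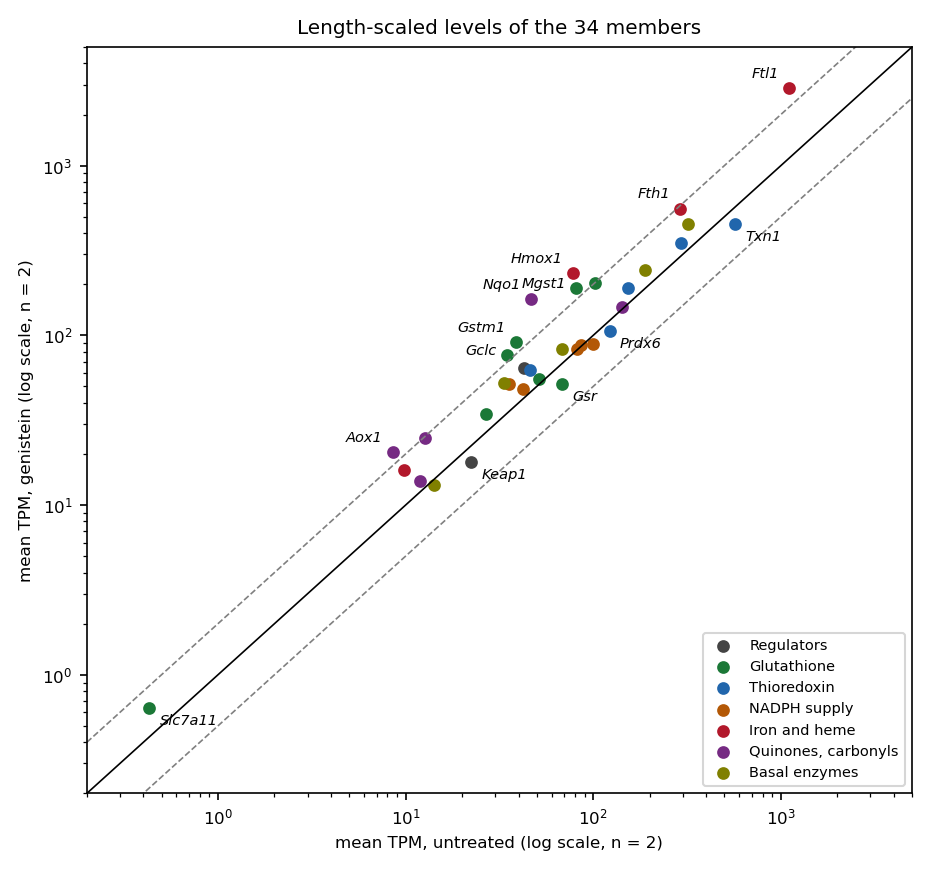
Mean TPM of each member in untreated (x axis) and genistein (y axis) cells, both on log scales, coloured by role, with 2 libraries per mean; the solid line is equality and the dashed lines are 2-fold in either direction. Ftl1 stands at the top with 1111 and 2851 TPM, Slc7a11 at the bottom with 0.431 and 0.635, and Nqo1 and Hmox1 lie farthest above the line.

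The wider list held 99 other genes of the same pathways, of which 87 were tested. Of these, 46 rose, 27 fell and 14 did not pass, and 11 were higher and 2 lower past all thresholds. These shares, 52.9% higher and 31.0% lower, stand beside the 33.5% and 38.2% of all tested genes given above. Past all thresholds the shares were 12.6% higher and 2.3% lower, beside 3.92% and 4.16% of all tested genes. The list was written from general knowledge of the pathways, but with earlier results of these data known. It had no overlap with the 34 members.

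By role, the wider list resembled the members in part. Of 20 tested glutathione genes 13 rose (65%) and 2 fell (10%), and of 17 detoxification genes 13 rose (76.5%) and 2 fell (11.8%). Of 12 thioredoxin genes 4 rose (33.3%) and 7 fell (58.3%), and of 11 NADPH genes 2 rose (18.2%) and 7 fell (63.6%). The medians were 0.59, 0.35, -0.27 and -0.40, beside 0.64, 0.82, 0.11 and -0.10 for the members of these roles. Of 5 tested basal genes 4 rose (80%) and 0 fell. Beside the shares of these roles stand 33.5% higher and 38.2% lower among all tested genes.

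The detoxification genes past all thresholds were Ephx1, Ugt1a6a, Ptgr1, Aldh3a1 and Abcc5. Ephx1, microsomal epoxide hydrolase, rose most in counts, from 1971 and 1901 to 9083 and 9111 (log2 fold change 2.23, standard error 0.03, adjusted p = 1.6e-17, edgeR). Ugt1a6a, a glucuronosyltransferase whose last exons are shared with its family, rose from 523 and 529 to 1672 and 1769 (log2 fold change 1.71). Ptgr1, prostaglandin reductase, rose from 791 and 690.3 to 2107 and 2068 (1.49), Aldh3a1, an aldehyde dehydrogenase, from 47.9 and 48.7 to 199.7 and 187 (2.00), and Abcc5, an efflux transporter, from 1860 and 1761 to 3766 and 3801 (1.06).

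The glutathione genes past all thresholds were Mgst2, Gsta3, Chac1 and Gstm2. The transferases Mgst2 and Gsta3 rose from 94.9 and 104 to 396 and 413 (log2 fold change 2.02) and from 59.9 and 59.3 to 222 and 217 (1.88). Gstm2, a close relative of Gstm1, rose from 611 and 613 to 1369 and 1313 (1.13). Chac1 acts in the other direction, since it breaks glutathione down and is known as a target of ATF4, and it rose from 163 and 166 to 513 and 507 (1.63).

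In the thioredoxin list Sesn2, sestrin 2, a stress protein known as a p53 and ATF4 target, rose from 480.5 and 444 to 1973 and 1977 (log2 fold change 2.09). Txnrd3, a thioredoxin and glutathione reductase best known from testis, fell from 558 and 591 to 207 and 185 (log2 fold change -1.55, standard error 0.08, adjusted p = 8.8e-11, edgeR).

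**Figure D5:**
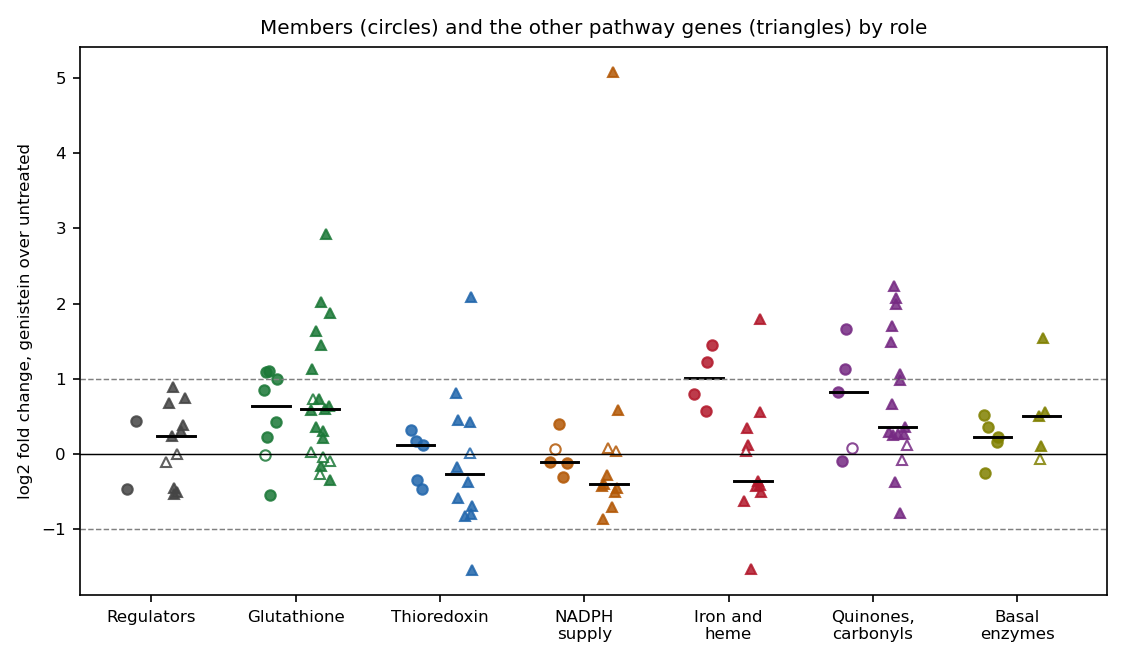
Log2 fold change (y axis) of the members (circles) and of the other tested pathway genes (triangles) by role (x axis); filled symbols have an adjusted p-value under 0.05, bars are medians of groups with over 2 genes and dashed lines mark a log2 fold change of 1 in either direction. Medians of the members range from -0.10 for NADPH supply to 1.01 for iron and heme, and the highest triangle is Aldh1l1 at 5.08, a gene with at most 2 reads per untreated library.

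Promoter sequences were searched for the core letters of the ARE, since this is the element that NRF2 binds. RefSeq windows of GRCm38.p6 were matched by symbol for 29 of 34 members, each from 250 bases before to 50 bases after an annotated start. The core TGACNNNGC was sought on both strands (GCNNNGTCA on the other), and was found in 10 of the 29 members (34.5%), beside 14.0% of all 27025 genes with a window and 12.4% of all 32851 windows. The matches are shown with their surroundings, read 5′ to 3′ on the strand of the gene with the core in capitals, so that the letters between its fixed parts can be compared.
Gclm, chr3:122245393-122245461: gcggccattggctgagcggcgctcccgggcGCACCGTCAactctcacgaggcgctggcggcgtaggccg
Prdx1, chr4:116685436-116685504: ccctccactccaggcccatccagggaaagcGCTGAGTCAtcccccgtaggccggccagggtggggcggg
Mgst1, chr6:138140441-138140509: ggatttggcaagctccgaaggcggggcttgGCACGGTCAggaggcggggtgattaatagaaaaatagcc
Txnrd1, chr10:82859084-82859152: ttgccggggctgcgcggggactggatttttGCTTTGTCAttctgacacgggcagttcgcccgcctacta
Sod1, chr16:90220676-90220744: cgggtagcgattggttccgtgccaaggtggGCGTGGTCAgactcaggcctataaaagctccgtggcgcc
G6pdx, chrX:74428899-74428967, minus strand: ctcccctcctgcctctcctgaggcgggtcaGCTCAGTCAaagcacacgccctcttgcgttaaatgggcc
Nfe2l2, chr2:75704865-75704913, minus strand: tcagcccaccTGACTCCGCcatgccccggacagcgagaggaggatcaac
Me1, chr9:86695902-86695950, minus strand: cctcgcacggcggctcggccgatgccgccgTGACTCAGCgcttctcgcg
Srxn1, chr2:152105542-152105570: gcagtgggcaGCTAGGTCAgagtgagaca
Pgd, chr4:149166061-149166089, minus strand: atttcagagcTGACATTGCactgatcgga
Lines without a strand are on the plus strand. In Prdx1 and Me1 the core overlaps the letters of the AP-1 motif (TGACTCA, or TGAGTCA on the other strand), which 20.7% of the members with a window and 5.95% of all genes with a window hold.

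The counts for members with and without the core stand side by side here, with no test between them. Of the 10 members with the core, 8 rose, 1 fell and 1 did not pass, with a median log2 fold change of 0.20 and 1 past all thresholds (Mgst1). Of the 19 without it, 11 rose, 6 fell and 2 did not pass, with a median of 0.36 and 4 past all thresholds. Beside both groups stand 33.5% of all tested genes called higher and 38.2% called lower. Past all thresholds these shares were 3.92% and 4.16%. The 5 members without a window, Hmox1, Gclc, Gsta4, Gsr and Prdx6, are in neither group, and Hmox1 and Gclc were past all thresholds. AREs are known to lie also outside such windows, so a window without the core says only that these letters are not within it.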

How the data were processed

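Total RNA libraries of MEF cells, 2 untreated and 2 genistein-exposed, were grouped by their labels. The authors depleted ribosomal RNA, trimmed paired reads with Trim Galore, aligned them to mm10 with STAR and counted genes (Gencode M9) and repeats with TEtranscripts. The deposited values are raw counts, not normalized. The strand option was not stated. The table held 47937 genes, 1445 repeats and 1 unnamed entry with 0.00208% to 0.00314% of counts, which was left out.

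Counts were analyzed with edgeR 4.0.16 in R 4.3.3. filterByExpr kept 16240 genes and 1118 repeats, library sizes were set by TMM (trimmed mean of M-values), and groups were compared with the two-sided quasi-likelihood test, with p-values adjusted by Benjamini-Hochberg across the kept genes and repeats together. Normalized counts were divided by effective library size and multiplied by its mean. Standard errors were the log2 fold change divided by the root of F. An exact permutation test of 2 against 2 libraries cannot go below p = 0.333. No library pair was a duplicate, with chi-square values of 5.7 and 13.1 for each degree of freedom between replicates. The method was tested on simulated data.

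Symbols, positions and exon lengths came from GENCODE M21 (GRCm38, the assembly of mm10), and 47310 gene identifiers had a symbol. Near-identical copies were sought with blastn 2.17.0 (at least 97% identity over 150 bases). All 34 members were named, and of the pathway list 8 regulators and every gene past all thresholds, with others where a count turned on them. The low-count, folate and metallothionein genes, the rest of the wider iron and heme list and those with iron-responsive element matches were named after their values were seen. Members and lists were chosen with earlier results of these data known.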

Additional observations from a re-analysis of the deposited data

How the results depend on the processing

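Each member was refitted under 10 alternatives, namely RLE size factors, library totals, TMM factors from genes alone, no filter, DESeq2 1.42.0, a block for the replicate number, and the omission of each library in turn, where a lone library is assumed to vary like the others. Of 340 values, 314 kept direction and side of the adjusted p-value threshold, 21 lost the call, 2 gained it and 3 reversed. In all, 26 of the 31 calls (20 higher, 6 lower) held under each of these alternatives. The exceptions were Slc7a11, Prdx1, G6pdx, Taldo1 and Esd. The reversed values belonged to members without a call, Gstp1 with library totals (0.0497) and with factors from genes alone (0.0238), and Cbr3, which ranged from -0.0441 without genistein replicate 1 to 0.190 without genistein replicate 2.

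The number of members past all thresholds was 7, and 6 with RLE, no filter, DESeq2 or without untreated replicate 2, where Gclc fell below a log2 fold change of 1. It was 5 when tested against the fold threshold itself, and then Gclc and Gstm1 were lost. The members' median of 0.27 was 0.34 with library totals and 0.31 with factors from genes alone, where the median of all genes was 0.04 and 0.01 in place of -0.03. Without each library it lay from 0.25 to 0.31. The replicate block gave 21 higher and 9 lower members and 7 past all thresholds, with the call of Prdx1 lost. Deviations of same-numbered libraries correlated at -0.03, which gives no sign that equal numbers mark paired libraries.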

Other observations

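Some pathway genes had large fitted changes at counts too low for the count threshold. Aldh1l1, a folate enzyme that makes NADPH, had 2 and 0 raw reads in the untreated and 38 and 42 in the genistein libraries. Gstm7, a glutathione transferase, had 7 and 2 against 37 and 37. Abcc3, an efflux pump for conjugates, had 32 and 32 against 147 and 138 reads (log2 fold change 2.07, standard error 0.17, adjusted p = 1.1e-08, edgeR). Sod3, the extracellular superoxide dismutase, had 32 and 32 against 101 and 97 (log2 fold change 1.55, standard error 0.18, adjusted p = 1.2e-06, edgeR). These 4 genes were picked for their large rises, so that their groups do not overlap follows from the choice. Both genistein libraries were above both untreated libraries in 6603 of the 16240 tested genes. Aldh1l1 and Gstm7 had enough reads to be tested only through their genistein libraries. Sizes are imprecise where untreated reads were under 10. The folate enzymes Mthfd1 and Mthfd2, which also serve NADPH balance, fell by 0.86 and 0.71 on the log2 scale. Metallothionein Mt1 rose by 0.55 (standard error 0.04) and Mt2 by 0.11 (standard error 0.04).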
